A study of Danio rerio with 24 samples.

Results

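The response of the adult zebrafish liver to bacterial lipopolysaccharide (LPS) was read from every array labelled as liver, which were 8 of the 24 arrays in the series. The fish were wild-type adults of 9 months, and their sex is not given. The labels give a normal diet for all samples, but also mention a differential diet for 8 months. In 4 of the liver samples the fish had received 10 μg of pure LPS into the peritoneal cavity, and in the other 4 an equal volume of phosphate-buffered saline (PBS) by the same route. Livers were taken 3 hours later, and each array carries RNA from a pool of 3 fish, so a replicate is a pool and p-values measure the spread between pools. The comparison asks which liver genes were higher or lower after LPS. A level is given as the log2 signal of a probe relative to the 75th percentile of its array, and a log2 fold change is the LPS mean minus the PBS mean of these levels. A gene counted as called if any of its probes reached, by limma, a p adjusted over all 40103 probes tested, under 0.05. Values of a gene are those of its brightest probe (the tested probe with the highest mean over the 24 arrays of the 3 tissues) unless another is named, and n is 4 and 4 arrays unless stated.

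LPS is the glycolipid of the outer membrane of Gram-negative bacteria. In mammals it is detected by Toll-like receptor 4, whose adaptors switch on the transcription factors NF-kappaB, AP-1 and the interferon regulatory factors, and these induce cytokines, chemokines and their own inhibitors. The liver holds macrophages and endothelial cells that meet blood-borne LPS, and hepatocytes that answer cytokines with the acute phase response, a change in the plasma proteins they make, such as serum amyloid A, hepcidin, fibrinogen and complement. In egg-laying fish the hepatocytes of females also make vitellogenin, the yolk precursor.

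Before any comparison, the tissue label was set against marker genes. The hepatocyte list (17 of its 22 genes were on the array) had a log2 summed signal of 9.61, 11.66, 10.37 and 11.33 on PBS replicates 1 to 4 and of 11.61, 8.17, 11.57 and 12.09 on LPS replicates 1 to 4. LPS replicate 2 therefore stood below all other liver arrays, and below the replicate 2 arrays of the kidney, which had 10.93 with PBS and 10.29 with LPS. The defining hepatocyte genes were still above background there, with 16 of 17 markers detected, and *fgb*, a chain of fibrinogen, stood at 3.35 against 8.39 to 9.01 on the other LPS arrays. Vitellogenins were also lowest on that array, at a log2 summed signal of 5.41 against 8.94 to 11.46 on the other liver arrays. The list of lymphocyte and NK-like markers was highest on it, at 4.66 against 0.98 to 2.3 elsewhere in the liver.

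A second difference ran with the treatment. Genes of the oocyte (27 of 34 on the array), which an ovary but not a liver expresses, had log2 summed signals of 10.18, 7.60, 10.33 and 9.34 on PBS replicates 1 to 4. On the LPS arrays they were at 7.53, 7.16, 6.91 and 6.36, so that every LPS array was below every PBS array and PBS replicate 2 was close to the LPS arrays. Kidney and muscle arrays carried oocyte signal too, between 4.47 and 11.52. PBS replicate 1 was also low in erythrocyte markers, at 4.45 against 7.52 to 8.89 on the other liver arrays, and in exocrine pancreas markers, at 9.39 against 10.81 to 12.37. In bulk tissue, fewer cells of a type and less RNA per cell cannot be told apart.

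**Figure D1:**
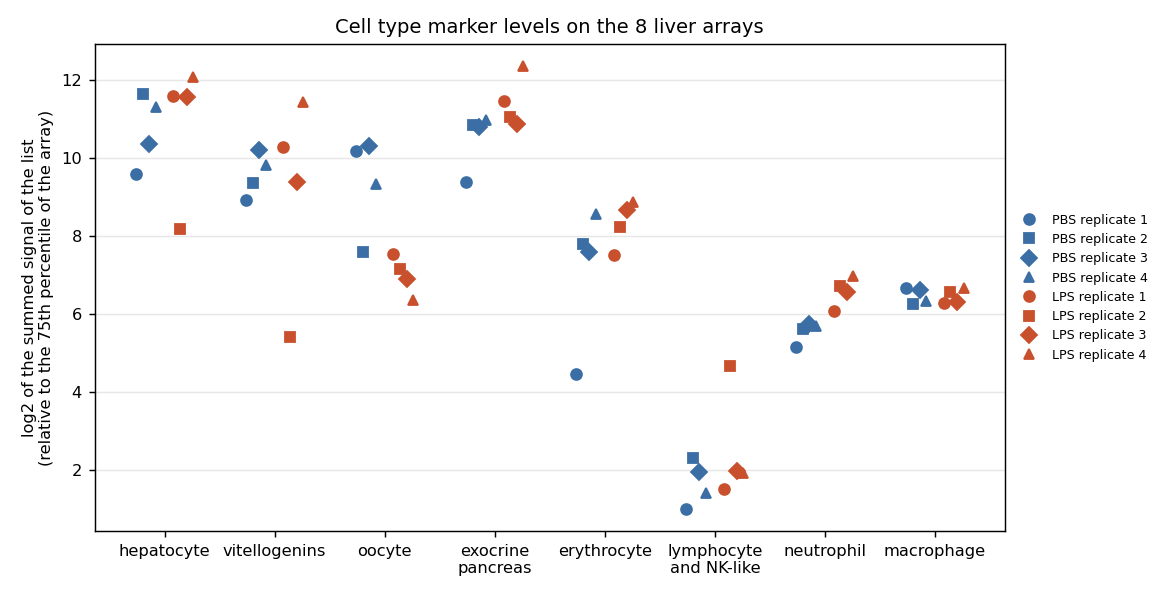
Log2 of the summed signal of 8 marker lists, relative to the 75th percentile of the array, on each of the 8 liver arrays (blue, PBS; red, LPS; the symbol gives the replicate). LPS replicate 2 is lowest for hepatocyte markers (8.17) and vitellogenins (5.41), and the 4 LPS arrays (6.36 to 7.53) lie below the 4 PBS arrays (7.60 to 10.33) for oocyte markers.

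After LPS, genes of the inflammatory response were far higher in the liver. They were led by the dendritic cell and lymphocyte activation marker *cd83*, the chemokines *cxcl18b*, *ccl20a.3* and *ccl35.1*, interleukin 1 beta (*il1b*) and the stress-induced transcription factor *atf3*. Fewer genes were called lower than higher, led by *fam113*, the mitochondrial apoptosis protein gene *diabloa* and the chemokine *ccl39.1*. At an unadjusted p under 0.05 by limma it was the reverse, with 11.2% of all genes lower and 7.2% higher. Of 12315 genes tested, 68 were called higher (0.552%) and 14 lower (0.114%). The LPS arrays lay wholly above the PBS arrays for 65 of the 68, and wholly below for 11 of the 14. Over all genes tested, this separation was found for 6.43% upwards and for 6.73% downwards. Probes of a gene did not always agree. Of the 82 called genes, 52 had several probes tested, and all probes were called in 12 of these 52. For 19 of the 82 the brightest probe was not called. A further 59 called probes carried no gene symbol, 52 of them higher and 7 lower.

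These counts depended on single arrays. Without LPS replicate 2, 92 genes were called higher (0.747%) and 16 lower (0.13%), 68 of them shared with the 82 called on all arrays. Without PBS replicate 2, 316 were called higher (2.57%) and 795 lower (6.46%), and these included all 82. Leaving out LPS replicate 1, 3 or 4 left 44, 18 or 14 genes, and leaving out PBS replicate 1, 3 or 4 left 52, 17 or 40. Among the genes called higher, 12 kept their call whichever single array was left out, and among those called lower, *diabloa* and *ccl39.1* did.

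A fit with the level of the oocyte markers as a covariate was added once the data had been seen. In that limma fit 0 genes were called, with 1583 probes at an unadjusted p under 0.05 against 6036 without the covariate. The genes called higher kept a positive log2 fold change in 66 of 68 cases, with a median of 2.34 against 3.27 without it, the exceptions being *mxc* and *srsf5a*. Those called lower stayed negative in 12 of 14 cases, with a median of -1.60 against -3.23, the exceptions being *ndr1* and *svopl*. The oocyte signal ran with the treatment, so this fit can hardly separate one from the other. The called genes were chosen for large changes on these same arrays, so their kept signs tell little. The arrays of LPS replicates 2 to 4 shared a slide that held no PBS array, and only the slide of LPS replicate 1 and PBS replicates 2 to 4 held both treatments. With the slide as a fixed block 16 genes were called, all higher, of which 4 were among the 82.

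**Figure D2:**
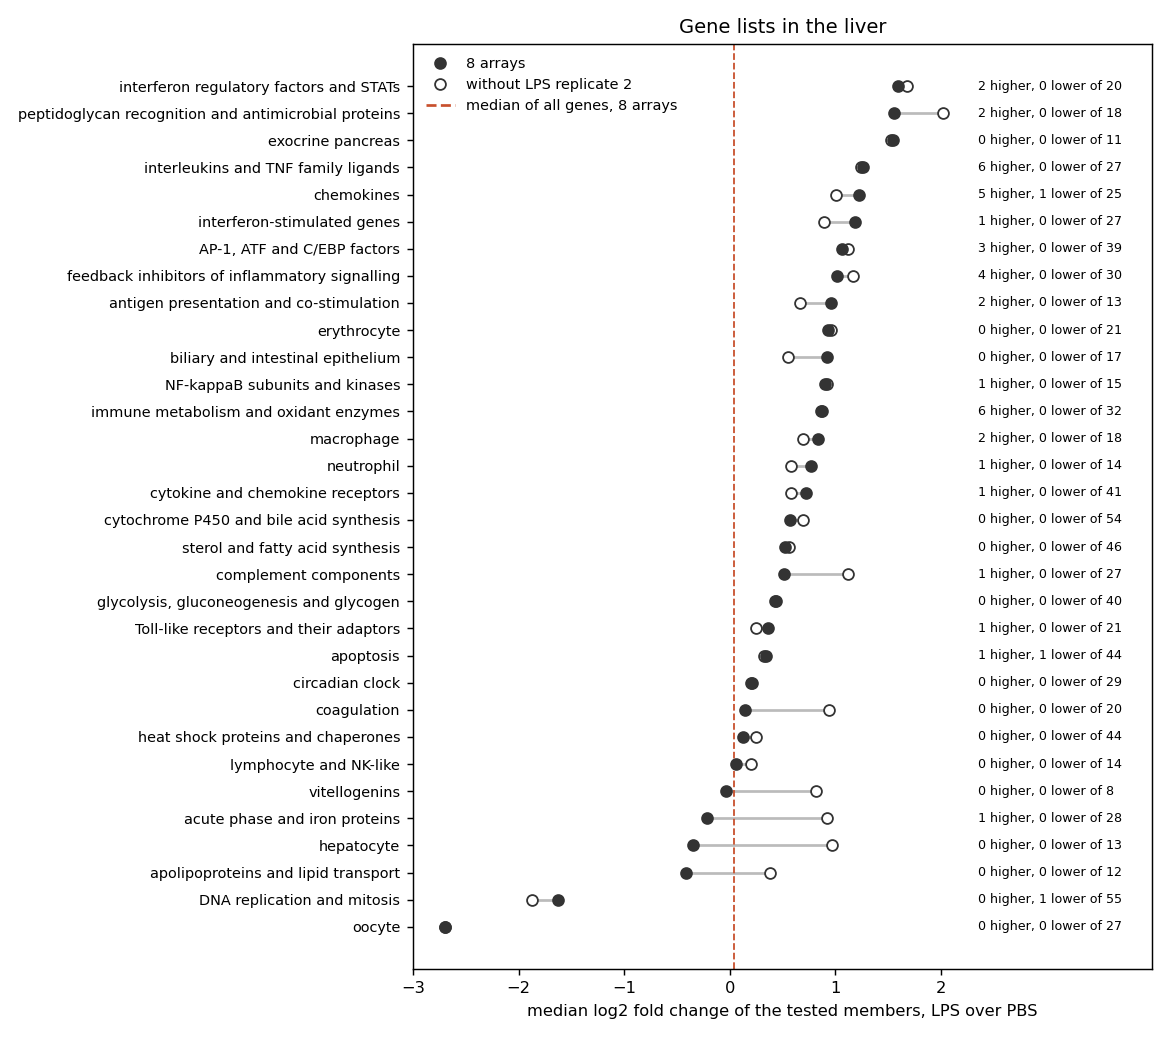
Median log2 fold change (LPS over PBS) of the tested members of 32 gene lists in the liver, over all 8 arrays (filled circles) and without LPS replicate 2 (open circles), with the number of members called beside each list and the median of all genes (0.04) as a dashed line. The lists of hepatocyte products move upwards when LPS replicate 2 is left out, and the oocyte and DNA replication lists lie lowest.

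Among interleukins and ligands of the TNF family, 6 of 27 tested members were called higher (22.2%, against 0.552% of all genes) and 0 lower, with a median log2 fold change of 1.26 against 0.04 over all genes. For every list below, the shares to compare with are 0.552% of all genes called higher and 0.114% called lower. The lists were chosen with earlier results of these data known, so list shares and medians here and below are not independent of these data. The pyrogenic cytokine *il1b* was at -4.06, -3.50, -4.45 and -3.72 on PBS replicates 1 to 4 and at 0.78, 1.12, 1.64 and 2.85 on LPS replicates 1 to 4. No PBS array showed it well above background and all LPS arrays did, with no overlap. Its log2 fold change was 5.53 ± 0.49 (SE, adjusted p = 0.00238), and the signal was at least 45.3-fold higher, a bound set by comparing the LPS mean with the higher of the probe's own signal and the lowest signal detected above background on each PBS array. Tumour necrosis factor (*tnfa*) stood at -5.10, -1.95, -4.30 and -3.53 with PBS and at -0.13, 0.02, 0.28 and 0.85 with LPS, a narrow range after LPS and a wide one before it. The difference was 3.97 ± 0.62 (SE, adjusted p = 0.0251).

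Interferon gamma (*ifng1*), which activates macrophages, was at least 9.20-fold higher (log2 fold change 3.39 ± 0.46 SE, adjusted p = 0.0191, 3 LPS arrays with a value). The anti-inflammatory cytokine *il10* rose beside these, by at least 7.93-fold (3.24 ± 0.44 SE, adjusted p = 0.0151). Further ligands rose that act on epithelia and on macrophages in mammals, *il17c*, at least 8.63-fold, and *il34*, a ligand of the macrophage receptor Csf1r, at a log2 fold change of 3.31 ± 0.52 (SE). *il34* kept its call whichever array was left out. The receptor list moved less, with 1 of 41 members called (2.4%, against 0.552% of all genes called higher). This was the interleukin 10 receptor chain *il10ra* (at least 6.07-fold higher by its called probe, adjusted p = 0.0371), which lost its call without LPS replicate 2. Other probes of *il10ra* were not called, at 2.05 ± 0.56 (SE, adjusted p = 0.123) and -0.02 ± 0.52 (SE). The TNF receptor *tnfrsf1a* was at 2.26 ± 0.48 (SE, adjusted p = 0.0775) and missed the threshold. Differences smaller than their SE were found for the chemokine receptors *cxcr4b* (log2 fold change -0.28) and *ccr7* (-0.55) and for the granulocyte colony-stimulating factor receptor *csf3r* (-0.07), which no liver array detected above background.

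Chemokines, the proteins that attract leukocytes, moved in both directions. Of 25 tested, 5 were called higher and 1 lower, with a median log2 fold change of 1.22. *cxcl18b*, a neutrophil attractant in zebrafish, was at -1.17, 0.79, -0.31 and 0.71 with PBS and at 5.76, 4.92, 5.38 and 6.39 with LPS. This gap of over 4 log2 units between the nearest arrays corresponded to a log2 fold change of 5.6 ± 0.53 (SE, adjusted p = 0.00275). *ccl20a.3* was at -2.44, 0.33, -2.2 and -0.69 with PBS and at 4.85, 2.92, 4.62 and 4.93 with LPS, so that LPS replicate 2 was the lowest LPS array without reaching the PBS range. *ccl35.1* (5.23 ± 0.46 SE), *ccl34a.4* (4.61 ± 0.66 SE) and *ccl19a.1* (3.69 ± 0.61 SE) were the other chemokines that rose.

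*ccl39.1* was the chemokine that fell. Its 3 probes were all called, and the brightest was at 0.60, 2.09, 0.60 and 2.14 with PBS and at -2.94, -3.28, -2.1 and -2.15 with LPS. Levels after LPS were below every PBS array, with a log2 fold change of -3.97 ± 0.51 (SE, adjusted p = 0.0113). PBS replicates 2 and 4 were its highest PBS arrays, while the oocyte markers were highest on PBS replicates 1 and 3. With the oocyte level in the fit the log2 fold change was -5.42 and not called. That fit can hardly separate oocyte signal from treatment, and the part of oocyte RNA in this fall was not tested.

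**Figure D3:**
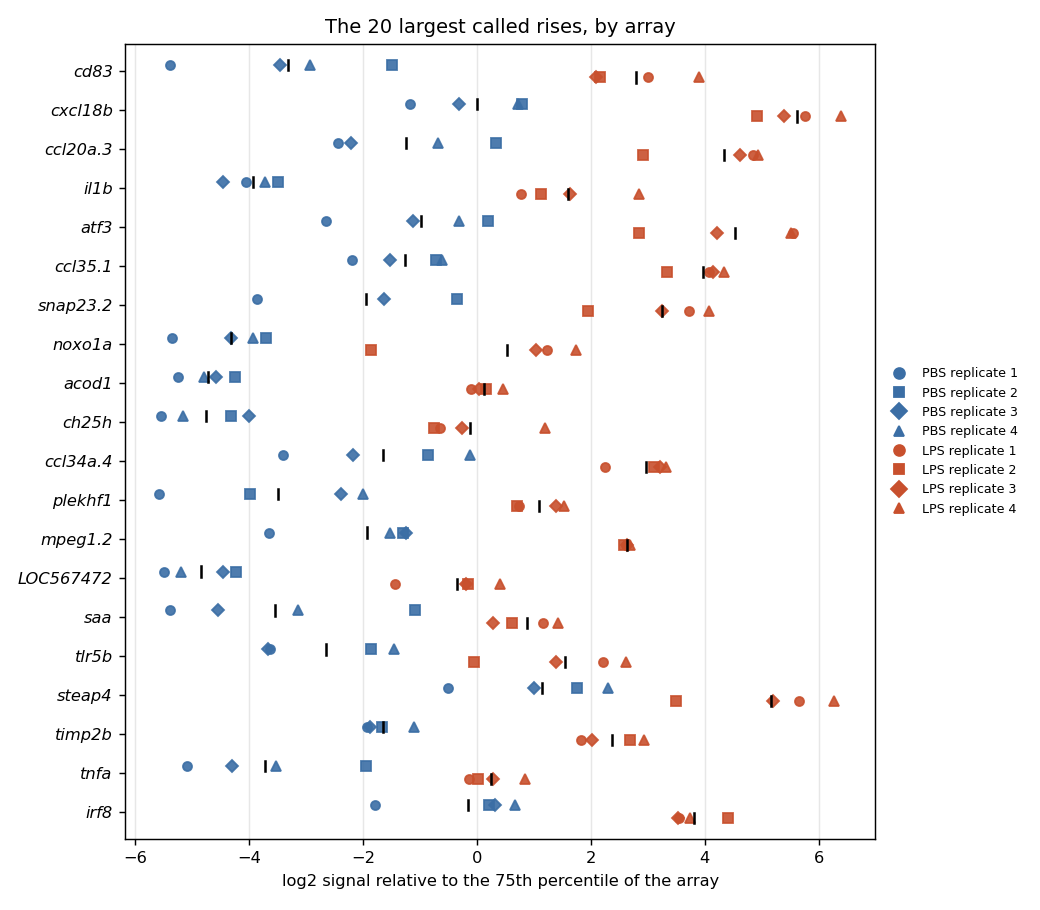
Level on each liver array of the 20 genes with the largest called rise among those whose groups did not overlap, a condition of the choice (log2 signal relative to the 75th percentile of the array; blue, PBS; red, LPS; symbols give the replicate and black bars the group means). For *ccl20a.3* LPS replicate 2 (2.92) lies apart from the other LPS arrays (4.62 to 4.93).

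Few genes of bacterial recognition passed the test. Of 21 Toll-like receptors and adaptors, 1 was called, the flagellin receptor *tlr5b*. It was at -3.63, -1.85, -3.67 and -1.45 with PBS and at 2.21, -0.04, 1.38 and 2.62 with LPS, both of its probes being called (brightest probe 4.19 ± 0.70 SE, adjusted p = 0.034). The adaptor *myd88* lay higher on all LPS arrays but was not called (1.12 ± 0.35 SE, adjusted p = 0.167). *tlr4ba* was detected on no PBS array and on 1 LPS array, and *tlr2* overlapped between the groups (0.53 ± 0.80 SE, adjusted p = 0.849).

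Further down the pathway, the NF-kappaB precursor *nfkb2* rose by 2.2 ± 0.36 (SE, adjusted p = 0.0298), the single call among 15 subunits and kinases, and it lost the call without LPS replicate 2. *rel* stood higher on all LPS arrays, at 2.23 ± 0.49 (SE, adjusted p = 0.0862). The inhibitors of these signals had 4 of 30 members called higher and 0 lower. *nfkbiaa*, the inhibitor that holds NF-kappaB in the cytoplasm, was at 0.72, 2.5 and 3.17 on the 3 PBS arrays with a value and at 5.84, 5.59, 5.74 and 6.40 with LPS. The LPS arrays agreed closely and the PBS arrays did not, and the log2 fold change was 3.76 ± 0.59 (SE, adjusted p = 0.0326). The other probe of *nfkbiaa*, with a value on every array, was not called, at 3.49 ± 0.65 (SE, adjusted p = 0.0553). The suppressors of cytokine signalling *socs1a* (2.59 ± 0.42 SE, adjusted p = 0.0291) and *socs3b* (4.15 ± 0.65 SE by its probe with the lowest p, adjusted p = 0.0251) and the A20-binding protein *tnip1* (2.75 ± 0.40 SE by its called probe, adjusted p = 0.0187) were the other three. The other probes of *tnip1* were not called, at 1.70 ± 0.39 (SE, adjusted p = 0.0935) and 2.44 ± 0.52 (SE, adjusted p = 0.0775). A brighter probe of *socs3b*, with no value on LPS replicate 1, was not called, at 3.035 ± 0.57 (SE, adjusted p = 0.0625). *socs3a* was close to the threshold, at 3.09 ± 0.66 (SE, adjusted p = 0.0794).

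Transcription factors of the early response were called in 2 lists. Of 39 factors of the AP-1, ATF and C/EBP families and immediate early genes, 3 were called. *atf3* was at -2.64, 0.19, -1.12 and -0.32 with PBS and at 5.54, 2.84, 4.21 and 5.52 with LPS, with a log2 fold change of 5.50 ± 0.74 (SE, adjusted p = 0.0151). *ier2a* rose by 3.29 ± 0.51 (SE, adjusted p = 0.0251), and *jun*, a partner in the AP-1 dimer, by 3.60 ± 0.50 (SE, adjusted p = 0.0163) by 1 of its 3 probes. The other *jun* probes were brighter and not called, at 2.34 ± 0.55 (SE, adjusted p = 0.0978) and 2.49 ± 0.53 (SE, adjusted p = 0.0794). *junba* (3.01 ± 0.71 SE, adjusted p = 0.099), *cebpb* (2.39 ± 0.63 SE, adjusted p = 0.116) and *fosl1a* (1.83 ± 0.48 SE, adjusted p = 0.114) missed the threshold, although no LPS array overlapped a PBS array for any of them. Without LPS replicate 2, *fosab*, *fosl2* and *cebpa* were called as well, at 2.89 ± 0.45, 3.67 ± 0.58 and 2.69 ± 0.61 (SE, 3 LPS arrays). For *cebpa* this is the value of its brightest probe, while its call came from another probe. *fosab*, *fosl2* and *cebpa* were named after their values were seen.

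Interferon regulatory factors and STATs had the highest median of the 32 lists, 1.60 over 20 members, with 2 called. *irf8*, a factor of the macrophage lineage, was at -1.78, 0.21, 0.32 and 0.66 with PBS and at 3.54, 4.40, 3.54 and 3.73 with LPS (3.95 ± 0.55 SE, adjusted p = 0.0166). *irf1b*, which responds to interferon gamma in mammals, rose by 4.00 ± 0.64 (SE, adjusted p = 0.0275) by its called probe. A brighter probe of it, with no value on LPS replicate 2, was not called, at 3.685 ± 0.68 (SE, adjusted p = 0.0596). *stat1b* (1.92 ± 0.71 SE, adjusted p = 0.229) and *stat3* (1.19 ± 0.52 SE, adjusted p = 0.311) were not called. The interferon-stimulated genes had 1 of 27 called, the antiviral GTPase gene *mxc*, by 1 of 3 probes (3.55 ± 0.43 SE, adjusted p = 0.00823), while its brightest probe stood at 1.35 ± 0.60 (SE, adjusted p = 0.32) with overlapping groups. The ubiquitin-like modifier *isg15* was at 2.47 ± 0.60 (SE, adjusted p = 0.105), *mxa* at 1.37 ± 0.65 and *gbp1* at 0.76 ± 0.66, and *rsad2* was above background on none of the 8 arrays.

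The list of immune metabolism and oxidant enzymes also had a large share of calls, with 6 of 32 members called higher (18.8%) and 0 lower. *acod1*, which makes the metabolite itaconate, was at -5.25, -4.25, -4.58 and -4.8 with PBS and at -0.11, 0.15, 0.03 and 0.45 with LPS. It had the smallest SE among the 20 largest rises, at 4.85 ± 0.37 (adjusted p = 0.000844), and was at least 24-fold higher. Cholesterol 25-hydroxylase (*ch25h*) was at least 20.4-fold higher, with all 3 probes called. *noxo1a*, the organizer of an NADPH oxidase, was at least 24.7-fold higher by its called probe. Its other probes were not called, at 3.37 ± 0.64 (SE, adjusted p = 0.0584) and 2.16 ± 0.87 (SE, adjusted p = 0.268). On the called probe of *noxo1a* LPS replicate 2 was lower (-1.86) than the other LPS arrays (1.03 to 1.74). On the probe with the smallest change it lay below every PBS array (-5.74). Cyclooxygenase 2 (*ptgs2a*) was at least 8.03-fold higher, the metalloreductase *steap4* rose by 4.02 ± 0.72 (SE, adjusted p = 0.0462) and the metalloproteinase inhibitor *timp2b* by 4.01 ± 0.40 (SE, adjusted p = 0.00321). Another probe of *steap4* (3.46 ± 0.72 SE, adjusted p = 0.0765) and another of *timp2b* (2.99 ± 0.575 SE, adjusted p = 0.0588) were not called.

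Of the surface molecules of antigen presentation and adhesion, 2 of 13 were called. *cd83* had the largest rise of all called genes, from -5.39, -1.49, -3.45 and -2.92 with PBS to 2.99, 2.17, 2.08 and 3.90 with LPS. The PBS arrays spread over almost 4 log2 units, with PBS replicate 2 highest, and all LPS arrays stood above them (6.10 ± 0.76 SE, adjusted p = 0.00947). E-selectin (*sele*), by which endothelium captures leukocytes, was at least 8.76-fold higher (adjusted p = 0.0112). Another probe of *sele* was not called (2.31 ± 0.51 SE, adjusted p = 0.0873). *cd40*, detected on all LPS arrays and no PBS array, was at 2.70 ± 0.67 (SE, adjusted p = 0.108).

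The rest of the 20 largest rises were *snap23.2*, a membrane fusion protein (5.20 ± 0.82 SE, 3 PBS arrays), the endosomal protein *plekhf1* (4.58 ± 0.71 SE), the pore-forming macrophage protein *mpeg1.2* (4.56 ± 0.54 SE) and LOC567472 (4.50 ± 0.49 SE). After LPS the 4 arrays of *mpeg1.2* lay between 2.58 and 2.69, the tightest group among these genes, while with PBS they ran from -3.64 on replicate 1 to -1.25. Several called genes outside the lists were picked out after their values were seen, for their place in signalling. They were the leukocyte fatty acid receptor *gpr84* (at least 9.93-fold higher), the activin subunit *inhbaa* (3.50 ± 0.64 SE by its brightest probe, called by others) and its binding protein *fstl3* (at least 8.40-fold), the regulators of G protein signalling *rgs16* (at least 11-fold) and *rgs2* (2.52 ± 0.43 SE), the kinases *mapkapk3* (3.18 ± 0.51 SE) and *pim2* (2.38 ± 0.36 SE), and the oxygen sensor *egln3* (2.58 ± 0.45 SE).

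The 14 genes called lower were small in number and mixed in role. *diabloa*, whose product leaves mitochondria to free caspases from their inhibitors, was the brightest of them. It was at 4.8, 7.14, 5.36 and 6.77 with PBS and at 2.02, 1.9, 1.01 and 1.68 with LPS, and its 3 probes were all called (brightest probe -4.37 ± 0.55 SE, adjusted p = 0.0112). The fall was therefore larger than the spread within either group. Like *ccl39.1*, it was highest on PBS replicates 2 and 4. The initiator caspase *casp9* went the other way, from -0.78 to -0.34 with PBS to 3.44, 1.15, 1.64 and 2.92 with LPS (2.87 ± 0.52 SE, adjusted p = 0.049). These were the only calls among 44 apoptosis genes, whose median was 0.34, and *mcl1b* differed by 0.05 ± 0.34 (SE).

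The other 12 falling genes shared an order over the PBS arrays. PBS replicates 1 and 3, with the strongest oocyte signal, were the 2 highest PBS arrays in 12 of the 14, and PBS replicate 2, with the weakest, was the lowest in 11. Genes called higher often had the mirrored order. Of 65 with a value on every PBS array, PBS replicate 1 was the lowest PBS array in 51 and PBS replicate 2 the highest in 38. How common such orders were over all genes was not counted. *fam113* was at 2.64, -1.05, 1.64 and -0.02 on PBS replicates 1 to 4 and at -3.58, -3.21, -4.43 and -4.72 with LPS (-4.79 ± 0.75 SE, adjusted p = 0.0251). The replication initiation factor *mcm10* was at 1.9, 0.12, 1.22 and 0.25 with PBS and at -2.55, -1.96, -1.85 and -2.72 with LPS (-3.14 ± 0.48 SE, adjusted p = 0.0227). By these probes both genes were below every PBS array after LPS, PBS replicate 2 included. With the oocyte level in the fit they stood at -2.0 and -1.94 and were not called, in a fit that can hardly separate oocyte signal from treatment. Another probe of each gene overlapped between the groups and was not called. It stood at -2.40 ± 0.80 (SE, adjusted p = 0.189) for *fam113* and at -0.845 ± 0.75 (SE, adjusted p = 0.676) for *mcm10*.

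Among those with no LPS array above background, zgc:113691 was at least 12.9-fold lower and the gene of the secreted protein *lgi1a* at least 8.94-fold by its called probe. Other probes of *lgi1a* were not called, at -2.66 ± 0.64 (SE, adjusted p = 0.1025) and, with overlapping groups, at -0.76 ± 0.49 (SE, adjusted p = 0.523). The nodal-related signal *ndr1*, whose mRNA zebrafish eggs store, was called by 1 of 2 probes, which had no value on PBS replicate 2 (-4.03 ± 0.62 SE, 3 PBS arrays, adjusted p = 0.0305). Its brightest probe was not called (-3.19 ± 0.92 SE, adjusted p = 0.141), and there PBS replicate 2 (-4.18) lay within the LPS range of -5.02 to -3.75. The membrane protein gene *tmem44* (-3.90 ± 0.64 SE by its called probe, adjusted p = 0.0313) fell as well, without overlap between the groups. By their called probes, *itm2cb* (-3.26 ± 0.55 SE), the Deltex family ubiquitin ligase *dtx4a* (-2.58 ± 0.41 SE), *nkain1* (-2.51 ± 0.45 SE) and *setmar* (-2.36 ± 0.36 SE) also lay below all PBS arrays. Other probes of *dtx4a* and *nkain1* overlapped between the groups. In *svopl* and *znf1173* the brightest probe overlapped between the groups, and another probe was called, at -3.21 ± 0.44 (SE, adjusted p = 0.02) and -2.38 ± 0.42 (SE, adjusted p = 0.0454).

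**Figure D4:**
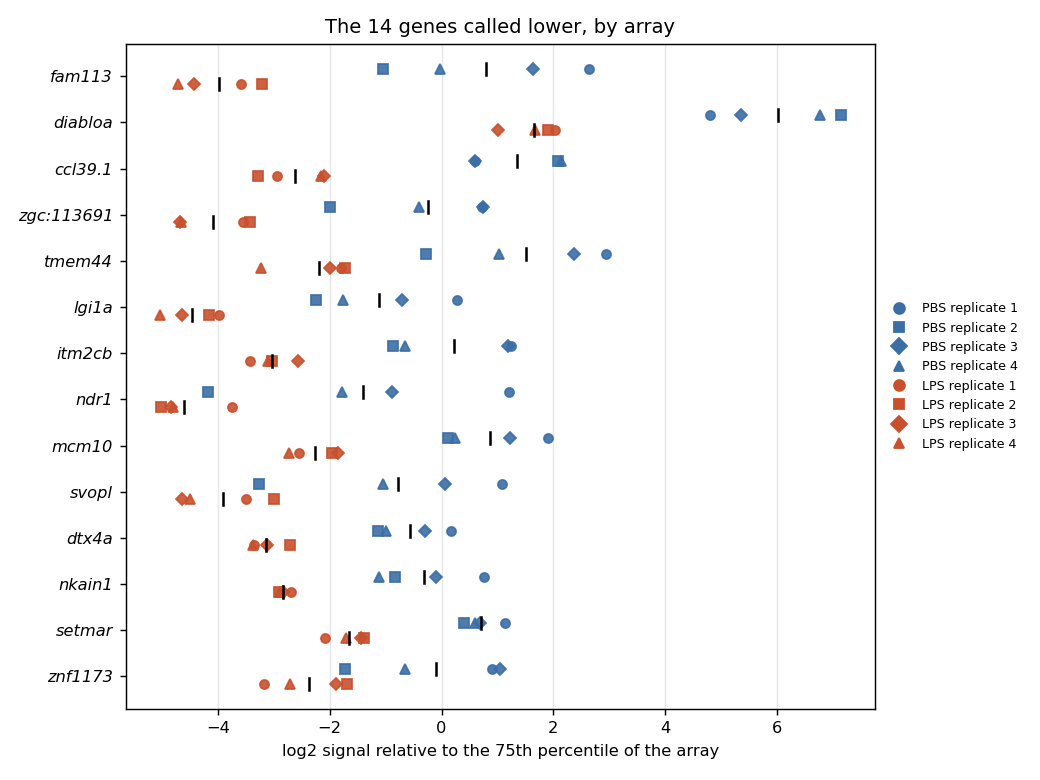
Level of the 14 genes called lower on each liver array (log2 signal relative to the 75th percentile of the array; blue, PBS; red, LPS; symbols give the replicate and black bars the group means). PBS replicate 2 (squares) is the lowest PBS array in 11 of the 14, while *diabloa* and *ccl39.1* are highest on PBS replicates 2 and 4.

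Genes of DNA replication and mitosis were lower as a list, with a median log2 fold change of -1.62 over 55 members against 0.04 over all genes. Of them, 34 were lower at an unadjusted p under 0.05, a share of genes that was 11.2% over all genes, but *mcm10* was the single call. The oocyte list stood at a median of -2.70, with 0 of 27 called and 24 lower at an unadjusted p under 0.05. Its key members *zp3b*, an egg envelope protein (-2.65 ± 0.58 SE, adjusted p = 0.0865), *zar1* (-2.70 ± 0.72), *gdf9* (-2.77 ± 0.88) and *figla* (-2.72 ± 1.0) were not called. In the replication list *ccnb1*, a mitotic cyclin also stored in eggs, was at 5.95, 2.79, 6.04 and 4.66 with PBS and at 2.37, 2.66, 1.96 and 1.59 with LPS (-2.71 ± 0.68 SE, adjusted p = 0.108), and was lowest on PBS replicate 2 among the PBS arrays, as was *zp3b* (6.39, 3.77, 6.34 and 5.52). When PBS replicate 2 was left out, 23 of the 27 oocyte genes and 27 of the 55 replication genes were called lower, against 6.46% of all genes in that fit. With the oocyte level in the fit the replication list had a median of 0.33, and *pcna*, the sliding clamp of replication, overlapped between the groups in any case (-0.33 ± 0.76 SE). The oocyte level also moved the medians of lists that rose. Chemokines went from 1.22 to 0.01, and interleukins and TNF family ligands from 1.26 to 0.43. Interferon-stimulated genes went from 1.18 to -0.26 and complement from 0.51 to -1.55. The NF-kappaB list (0.90 and 0.92) and the Toll-like receptor list (0.365 and 0.479) did not fall.

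The products of hepatocytes gave different values with and without LPS replicate 2. Serum amyloid A (*saa*), the classical acute phase protein, was at -5.39, -1.09, -4.55 and -3.14 with PBS and at 1.16, 0.61, 0.28 and 1.43 with LPS. All 4 LPS arrays were higher than any PBS array, and it was called at the edge of the threshold (4.41 ± 0.80 SE, adjusted p = 0.0497), but not without LPS replicate 2 (adjusted p = 0.0631) and by 1 of its 2 probes. It was the single call among 28 acute phase and iron genes. Hepcidin (*hamp*), the hormone that lowers blood iron, was at 0.68, 2.75, 3.99 and 3.48 with PBS and at 7.20, 2.23, 6.93 and 7.99 with LPS. LPS replicate 2 lay inside the PBS range and the other LPS arrays well above it. Over all arrays *hamp* was not called (3.36 ± 1.17 SE, adjusted p = 0.202), and without LPS replicate 2 it was (4.65, adjusted p = 0.0231).

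Other plasma proteins also depended on LPS replicate 2. *fgb* was at 5.86, 7.86, 7.02 and 8.07 with PBS and at 8.73, 3.35, 8.39 and 9.01 with LPS, which gave 0.17 ± 1.13 (SE) on all arrays and 1.51 without LPS replicate 2 (adjusted p = 0.249). Complement factor B (*cfb*) was at 7.28, 1.71, 6.62 and 7.5 with LPS against 4.65 to 6.77 with PBS, and *serpina1*, the alpha-1-antitrypsin gene, at 7.99, 2.79, 8.07 and 8.29 against 6.10 to 7.98. Neither was called with or without LPS replicate 2. Over whole lists, the median log2 fold change went from -0.22 to 0.92 for acute phase and iron proteins, from 0.14 to 0.94 for coagulation, from 0.51 to 1.11 for complement and from -0.35 to 0.97 for the hepatocyte markers when that array was left out. The median over all probes rose from 0.05 to 0.25 at the same time. Without PBS replicate 1, the PBS array lowest in hepatocyte markers, the medians of these lists fell instead. They were then -0.66, -0.22, 0.025 and -0.79 in the same order, and -0.09 over all probes. Of 27 complement genes, *cfbl* was called (2.44 ± 0.49 SE by its brightest probe, with another probe at an adjusted p of 0.0491, a call kept in 2 of the 8 fits with 1 array left out and lost without LPS replicate 2) and *c6.2* was at 0.66 ± 0.56 (SE).

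**Figure D5:**
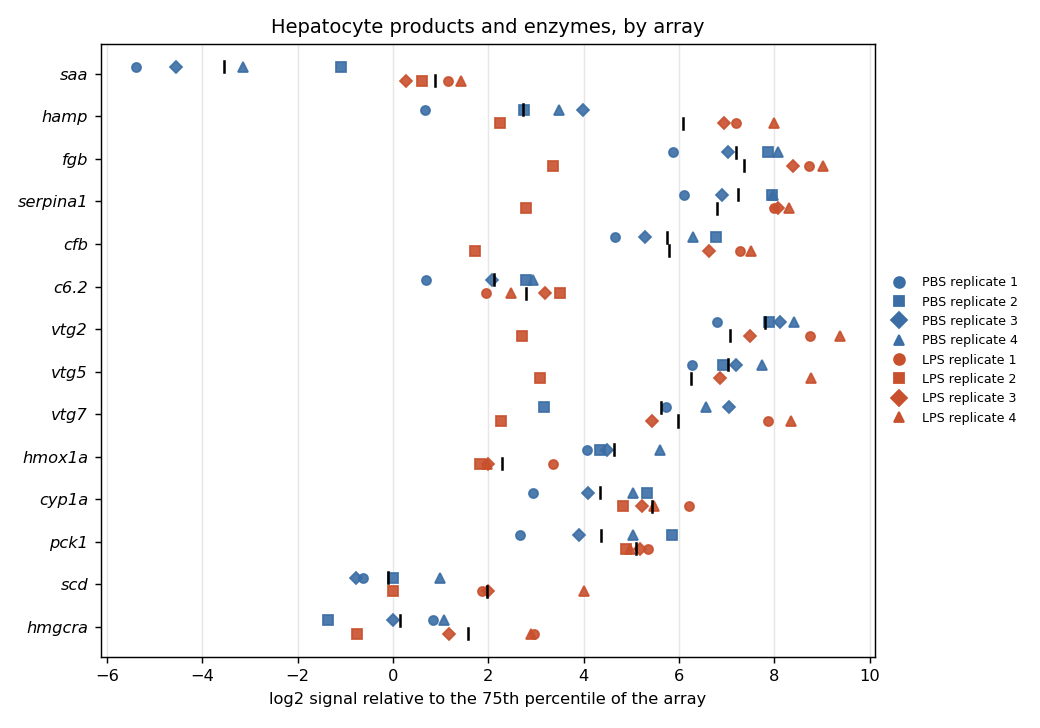
Level of 14 hepatocyte products and enzymes on each liver array (log2 signal relative to the 75th percentile of the array; blue, PBS; red, LPS; symbols give the replicate and black bars the group means). LPS replicate 2 (red squares) lies apart for *fgb* (3.35), *serpina1* (2.79) and *cfb* (1.71), while for *saa* all LPS arrays lie above the PBS arrays.

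Vitellogenins also lay lowest on LPS replicate 2. *vtg2* was at 6.80, 7.88, 8.12 and 8.40 with PBS and at 8.75, 2.71, 7.49 and 9.37 with LPS, and *vtg5* (-0.78 ± 1.1 SE, 3 LPS arrays) and *vtg7* (0.36 ± 1.27 SE) overlapped as well. Metabolic genes of the liver gave no calls: 0 of 54 cytochrome P450 and bile acid genes, 0 of 46 genes of sterol and fatty acid synthesis, 0 of 40 of sugar metabolism and 0 of 12 apolipoprotein and lipid transport genes. Their medians were 0.57, 0.52, 0.42 and -0.42. At an unadjusted p under 0.05 by limma, 3, 5, 7 and 0 of their members passed, where 7.2% of all genes passed as higher and 11.2% as lower. Examples were *cyp1a*, the dioxin-inducible cytochrome (1.09 ± 0.56 SE), *cyp3a65* (0.61 ± 0.45), *cyp7a1*, the rate-limiting enzyme of bile acid synthesis (-0.20 ± 0.88, and -1.68 ± 1.25 by the probe that was brighter in the liver), *hmgcra*, which makes mevalonate for sterols (1.43 ± 0.84), the desaturase *scd* (2.07 ± 0.76), the lipoprotein receptor *ldlra* (-0.50 ± 0.72), *apoeb* (0.44 ± 0.61) and *pck1*, the key enzyme of gluconeogenesis (0.74 ± 0.61). The glycolytic regulator *pfkfb3* had LPS arrays wholly above the PBS arrays, at 2.37 ± 0.58 (SE, adjusted p = 0.105). Many of the brightest liver genes could not be tested here, as the filter on raw signal removed probes outside its limits on every array: 4 of 17 hepatocyte genes and 10 of 22 lipid transport genes on the array had no tested probe.

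The genes *hmox1a* and *bag3* were picked after their values were seen. *hmox1a*, the haem-degrading oxygenase, was at 4.07, 4.34, 4.50 and 5.61 with PBS and at 3.36, 1.82, 1.99 and 1.97 with LPS, lower on every LPS array but not called (-2.34 ± 0.49 SE, adjusted p = 0.0775). Chaperones and clock genes had 0 of 44 and 0 of 29 members called in limma, with 8 and 2 at an unadjusted p under 0.05 (over all genes 7.2% higher and 11.2% lower). *hspa5* (-0.72 ± 0.52 SE), *hsp90aa1.2* (0.14 ± 0.46), *dnajb1b* (-0.88 ± 0.66), *per1a* (0.85 ± 0.65), *nr1d1* (0.80 ± 0.58) and *dbpa* (0.21 ± 0.58) all overlapped between the groups. The co-chaperone *bag3* stood at -0.60 on LPS replicate 2 and at 3.83 to 5.04 on the other LPS arrays, and was called without that array (4.67 ± 0.51 SE, adjusted p = 0.00472).

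Markers of leukocytes moved unevenly. Of 18 antimicrobial and peptidoglycan-sensing genes, *npsn* and *mpeg1.2* were called, and the median was 1.56. *npsn*, the astacin protease nephrosin of neutrophils, was called by 1 of 3 probes, at -3.32, -4.11, -4.44 and -3.87 with PBS and at -1.37, -1.89, -0.24 and -1.37 with LPS (2.72 ± 0.45 SE, adjusted p = 0.033), while its brightest probe overlapped between the groups. *lyz*, lysozyme (2.60 ± 0.67 SE, adjusted p = 0.114), *pglyrp5* (2.88 ± 0.73 SE, adjusted p = 0.11), *pglyrp2* (0.80 ± 0.55 SE) and the neutrophil peroxidase *mpx* (2.12 ± 1.21 SE, adjusted p = 0.455) were not called. *mpx* reached 4.65 on LPS replicate 3 and was between -3.07 and 0.35 on the other 7 arrays. Neutrophil markers summed to 5.16 to 5.75 on the PBS arrays and to 6.06 to 6.98 on the LPS arrays on the log2 scale, with 1 of 14 called. Macrophage markers summed to 6.24 to 6.67 and 6.27 to 6.67, which overlapped, with 2 of 18 called, *mpeg1.2* and *mfap4.1*. The latter was called by 2 of 3 probes (4.71 ± 0.78 SE, adjusted p = 0.033, and 2.80 ± 0.49 SE, adjusted p = 0.0445). Its remaining probe overlapped between the groups (2.99 ± 0.80 SE, adjusted p = 0.126, 3 PBS arrays). *mpeg1.1* (0.28 ± 0.61 SE) and *csf1ra* (-0.10 ± 0.51 SE, above background on none of the 8 arrays) overlapped.

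Lymphocyte markers had a median of 0.05 with 0 of 14 called (*lck* 0.28 ± 0.50 SE, *cd4-1* 0.10 ± 0.66), erythrocyte markers 0.93 with 0 of 21 (*hbba1* 1.69 ± 1.03, *alas2* 0.93 ± 0.73, *slc4a1a* 1.02 ± 0.82) and epithelial markers of bile duct and gut 0.92 with 0 of 17 (*krt18a.1* 2.16 ± 0.52, *vil1* 0.70 ± 0.54, *anxa4* 0.62 ± 0.49). At an unadjusted p under 0.05, 1, 2 and 5 of these members passed (over all genes 7.2% higher and 11.2% lower). Exocrine pancreas genes, whose cells lie scattered near the liver in fish, had a median of 1.55 with 0 of 11 called and 8 higher at an unadjusted p under 0.05, against 7.2% of all genes. The parts that oocyte, pancreas and blood cell RNA play in the liver values were not tested beyond the fits given above.

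To see whether the liver response differed from that of the other tissues, the effect of LPS was compared between tissues in a fit of all 24 arrays. One pool of fish may have given several tissues, so arrays of different tissues may not be independent. Against the kidney, limma called 0 of 12650 genes (0%), with 3410 probes at an unadjusted p under 0.05. Among the genes called in the liver, those with the smallest p of this difference were *ccl39.1*, *npsn*, *casp9*, *ccl20a.3* and *il34*, each at an adjusted p of 0.564. By the probe with the smallest p, *ccl39.1* differed by -4.46 between LPS and PBS in the liver and by 0.81 in the kidney, and *ccl20a.3* by 5.58 and 1.69. *casp9* differed by 2.87 and 0.57, and *il34* by 3.83 and 0.79. For *il1b* the log2 fold change was 5.53 in the liver and 7.13 in the kidney, which was not called as a difference.

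Against the muscle, 1 gene was called (0.00791%). By the probe called in the liver, which is not its brightest, *npsn* was at -3.93 with PBS and -1.22 with LPS in the liver, and at -1.15 and -3.46 in the muscle, so that it was higher after LPS in one tissue and lower in the other without overlap in either. In the liver its other 2 probes overlapped between the groups and were not called (0.84 ± 0.60 and 2.05 ± 0.61 SE). The difference of the 2 effects was 5.03 ± 0.74 (SE, adjusted p = 0.0339). The call was lost when LPS replicate 1, 3 or 4 or PBS replicate 2, 3 or 4 of the liver was left out (smallest adjusted p of any probe in these fits 0.0924 to 0.149). Without LPS replicate 2 the genes *bag3*, *higd1a* and *irg1l* were called beside *npsn*.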

How the data were processed

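RNA of 8 liver pools was hybridized to one-colour Agilent arrays. Per the file headers, the authors' scanner files hold a processed signal, an intensity per spot from which the software had subtracted background and spatial trend. Arrays were not scaled to each other. The headers name Feature Extraction 10.7.3.1, the submitters' notes 10.4.0.0. The authors also deposited a table of normalized log2 values, which was used as an alternative. It carries an undescribed offset per probe. Once both were centred per probe, all probes without outlier spots (100%) differed from the values used here by no more than 0.01.

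Of the 43803 spots per array, 39.4% to 55.7% were well above background in the liver. The log2 processed signal was taken relative to the 75th percentile of each array, outlier spots (0.285% to 7.76% of a liver array) were left out, and spots of a probe were averaged. The study keeps probes between the 20th and 95th percentiles of raw signal without saying on how many arrays, and here 1 liver array within these limits sufficed. Probes were named through accessions in a RefSeq table of the assembly GRCz12tu (names only): 25069 of 43603 matched, for 12858 genes. Probes with no match were tested without a name. LPS and PBS were compared by limma 3.58.1 in R 4.3.3 with Benjamini-Hochberg adjustment, for liver arrays alone, and effects were compared between tissues in a fit of 24 arrays. Genes sharing sequence with near copies may share signal on a probe.

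Named are the 20 largest rises without overlap, all genes called lower, called members of 32 lists and up to 4 key members of each list, and in the tests between tissues the called genes or, with none, the 5 genes called in the liver with the smallest p of the difference. Some genes were named after their values were seen, as stated beside them or among arrays far from the rest (*fosab*, *itln3*). A key member of a list is not reported here. The members and lists were chosen with earlier results of these data known. The alternatives were other normalizations (quantile, 50th percentile, normexp with an offset of 50), filters, blocks for slide and replicate number, probes averaged per gene, a stricter threshold and each array left out. The files used hold no mean signal column, so normexp took the median signal. Covariates for the oocyte and hepatocyte marker levels (the mean log2 level of each list) and the fit without PBS replicate 1 and LPS replicate 2 were added after seeing the data. The fit was tested on simulated data, with 50 probes each changed by 1, 2, 3 and 4 on the log2 scale. Of these, 0, 9, 25 and 34 were recovered among 33665 probes, with 2 false calls. The simulated noise was independent between probes, without the differences between arrays that many genes share here. The 2 false calls therefore do not measure false calls in the real data.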

Additional observations from a re-analysis of the deposited data

Results flagged for a closer look

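In 21 of 360 groups of 4 arrays examined, 1 array lay far from the other 3, and chance alone flags about 1 in 20 groups. LPS replicate 2 was that array in 12 of the 21. It was low for *fgb* (3.35 against 8.39 to 9.01), *serpina1* (2.79 against 7.99 to 8.29), the lectin gene *itln3* (2.98 against 8.02 to 8.92) and *cfb* (1.71 against 6.62 to 7.5), for the summed hepatocyte markers (8.17 against 11.57 to 12.09) and for the summed coagulation genes (6.08 against 9.54 to 10.05). It was also low for *ccl20a.3* (2.92 against 4.62 to 4.93), *rgs16* (-2.57 against -0.57 to -0.28) and *junba* (-0.98 against 0.91 to 1.18). The same array was high for *neflb* (-1.93 against -2.63 to -2.58), for the summed lymphocyte and NK-like markers (4.66 against 1.51 to 1.96) and for the summed NF-kappaB subunits and kinases (6.84 against 5.40 to 5.6).

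Among the PBS arrays, replicate 1 was low for *alas2*, an enzyme of haem synthesis (-1.19 against 1.87 to 2.28), for *mpeg1.2* (-3.64 against -1.53 to -1.25) and for the summed exocrine pancreas markers (9.39 against 10.81 to 10.99), replicate 2 was low for *fosab* (-0.53 against 0.30 to 0.47), and replicate 3 was high for *rgs2* (-0.54 against -1.32 to -1.23). Single LPS arrays were high for *hmox1a* (3.36 on replicate 1 against 1.82 to 1.99), *ndr1* (-3.75 on replicate 1 against -5.02 to -4.80), *hsp90aa1.2* (0.20 on replicate 3 against -0.66 to -0.56) and *nr1d1* (0.31 on replicate 4 against -0.33 to -0.27).

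By 1 of its 3 probes, the effect of LPS on *npsn* differed between liver and muscle by a test of the difference itself, at 5.03 on the log2 scale (limma adjusted p = 0.0339), with all 4 LPS arrays above the PBS arrays in the liver and all 4 below them in the muscle. The call was lost when LPS replicate 1, 3 or 4 or PBS replicate 2, 3 or 4 of the liver was left out.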

How the results depend on the processing

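The 82 genes called became 235 (180 higher, 55 lower) when the 24 arrays were fitted in 6 groups and 137 (105 and 32) over the 17469 probes above background on every array of a group. They became 54 (49 and 5) with probes averaged per gene, 37 (32 and 5) with normexp, 26 (23 and 3) with the slide as a random block, 17 (16 and 1) at an adjusted p under 0.01 and 16, all higher, with the slide as a fixed block. With the added covariates they were 0 for the oocyte level and 348 (191 and 157, all 82 included) for the hepatocyte level. They stayed within 1.5 times with the quantile normalization (81, 57 of them shared), the 50th percentile (118), the authors' table (69), outlier spots kept (69), no filter (86) and PBS replicate 1 and LPS replicate 2 both left out (122). Leaving out single arrays gave 14 (without LPS replicate 4) to 1111 (without PBS replicate 2, 316 higher and 795 lower). Replicate numbers gave no clear sign of pairing. Deviations of same-numbered arrays correlated at -0.15 to 0.17 and those of arrays with unlike numbers at -0.16 to 0.13, which cannot exclude a pairing. With the replicate block 7 genes were called (6 and 1), all among the 82. The cause of these differences was not tested.

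The 41 called members of the lists became 80 in the fit of 6 groups, 24 with normexp, 18 and 3 with the slide as a random and a fixed block, 12 at an adjusted p under 0.01, 6 with the replicate block, 85 with the hepatocyte covariate and 0 with the oocyte covariate, and 11 to 164 with single arrays left out. Between liver and kidney, 1 gene (*apeh*) was called with the quantile normalization and 0 otherwise. Between liver and muscle, 0 were called with the replicate block and 0 to 4 with single arrays left out.

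The called genes that changed sign, all with the oocyte covariate, were *mxc* (-0.53), *srsf5a* (-0.025), *ndr1* (0.25) and *svopl* (0.006). Of the named genes not called, 32 changed sign with the oocyte covariate, 1 with the hepatocyte covariate and 16 with both arrays left out. Under the other alternatives, genes not called changed sign as follows. With the slide as a fixed block they were *alas2* (-0.58), *anxa4* (-0.18), *apoeb* (-0.66), *c6.2* (-0.64), *cd4-1* (-1.39), *csf3r* (0.76), *dbpa* (-0.53), *hbba1* (-0.28), *hsp90aa1.2* (-0.48), *hspa5* (0.11), *mcl1b* (-0.10), *mpeg1.1* (-0.53), *mpx* (-0.52), *serpina1* (0.38), *slc4a1a* (-0.69), *tlr2* (-1.07) and *vtg2* (0.61). With it as a random block they were *cd4-1* (-0.41), *csf3r* (0.35), *hsp90aa1.2* (-0.004), *mcl1b* (-0.037) and *serpina1* (0.056). With the quantile normalization they were *cd4-1* (-0.20), *cfb* (-0.37), *dbpa* (-0.10), *fgb* (-0.47), *mcl1b* (-0.088) and *vtg7* (-0.245), with the 50th percentile *cfb* (-0.059) and *mcl1b* (-0.038), with normexp *csf1ra* (0.015), *cyp7a1* (0.023) and *dbpa* (-0.10), and with averaged probes *anxa4* (-1.67) and *vtg7* (-0.032). With single arrays left out, the sign changed for *apoeb* (-0.15 to 0.90), *ccr7* (-0.95 to 0.18), *cd4-1* (-0.35 to 0.66), *cfb* (-0.55 to 1.38), *csf1ra* (-0.40 to 0.30), *csf3r* (-0.39 to 0.22), *cxcr4b* (-0.64 to 0.001), *cyp7a1* (-0.89 to 0.26), *dbpa* (-0.18 to 0.63), *fgb* (-0.38 to 1.51), *hsp90aa1.2* (-0.24 to 0.31), *lck* (-0.085 to 0.63), *ldlra* (-1.08 to 0.008), *mcl1b* (-0.076 to 0.113), *mpeg1.1* (-0.25 to 0.67), *pcna* (-1.08 to 0.47), *rsad2* (-0.12 to 0.49), *serpina1* (-0.95 to 0.88), *tlr2* (-0.24 to 0.96), *vtg2* (-1.49 to 0.73), *vtg5* (-2.05 to 0.79) and *vtg7* (-0.46 to 1.59).

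Between 39.4% and 55.7% of the spots of a liver array were well above background, and 4 arrays a group limit the precision.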
